A study of Mus musculus with 13 samples.

Results

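Heme is the iron-containing ring that hemoglobin, cytochromes, and the phagocyte oxidase carry. Its synthesis begins and ends in mitochondria and passes through the cytosol: glycine and succinyl-CoA are joined by an aminolevulinate synthase, the products are condensed and trimmed into a porphyrin ring, and ferrochelatase inserts the iron. Every nucleated cell uses the housekeeping first enzyme ALAS1, whereas ALAS2 is the form of the red cell lineage, in which GATA1 and KLF1 are the main transcription factors and heme is made in bulk for hemoglobin. The 9 genes described here are, in pathway order, *Alas1* and *Alas2*, the mitochondrial glycine importer *Slc25a38*, *Alad* (aminolevulinate dehydratase), *Uros* (uroporphyrinogen III synthase), *Urod* (uroporphyrinogen decarboxylase), *Cpox* (coproporphyrinogen oxidase), *Ppox* (protoporphyrinogen oxidase), and *Fech* (ferrochelatase). They were chosen by name, 9 of the 54838 genes in the deposited counts, and do not cover every step of the pathway.

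The libraries were made from Lin-cKit+ BM cells, a fraction of bone marrow without mature lineage markers that is enriched for HSPCs, with 50000 sorted cells from each mouse. All 13 mice carried *Mx1-Cre*, a recombinase gene driven by an interferon-responsive promoter that is not restricted to blood cells. The 3 control mice had no other engineered allele, the 3 p53mut mice were also p53 R172H/+, the 3 NrasG12D mice were also Nras G12D/+, and the 4 NPmut mice carried both mutant alleles. Control, p53mut, and NrasG12D mice were injected 3 times with 100 μg of pI-pC, an RNA analog that triggers interferon and thereby Cre, from about 6 weeks of age, and were matched in age to the NPmut mice. The NPmut mice had received no pI-pC and were moribund, so that the missing injections and the stage of disease cannot be told apart from the genotype.

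Between 12576174 and 29124022 reads per mouse were counted on genes. Levels are given as CPM, counts scaled to a common library size with TMM factors. *Kit*, the receptor used for sorting, had a mean of 540 CPM in control (SD 31.7, n = 3) and of 372 CPM in NPmut HSPCs (SD 66.4, n = 4; adjusted p = 0.0322, edgeR), and *Cd34*, another progenitor marker, of 258 and 292 CPM. Of 5 HSPC markers tested, *Kit* was called lower and *Flt3* higher, against 10.9% of all genes called in either direction. *Flt3* had means of 71.8 CPM in control (SD 24.2, n = 3) and 159 CPM in NPmut HSPCs (SD 66.7, n = 4). Sums over markers of other cells differed between the groups. Summed over 15 erythroid marker genes, expression was 1153 to 1691 CPM in control, 1218 to 1954 in p53mut, 1085 to 1337 in NrasG12D, and 377 to 1010 in NPmut mice. Summed over 8 monocyte and macrophage genes, it was 647 to 729, 573 to 1043, 569 to 850, and 1732 to 2648 CPM. Summed over 6 megakaryocyte genes, it was 125 to 200 CPM in control mice, 128 to 256 CPM over the mice of both single mutants, and 13.9 to 69.0 CPM in NPmut mice. In NPmut against control HSPCs, 5 of 5 tested megakaryocyte genes were called lower, with a median log2 fold change of −2.54. Of 14 tested erythroid markers, 3 were called lower, where 5.54% of all genes tested were. In bulk RNA, fewer cells of a type and less RNA per cell cannot be told apart, and the part of these shifts in the results below was not tested. A gene was called where its adjusted p was under 0.05 in edgeR's quasi-likelihood test, fitted to all 13 libraries and adjusted by Benjamini-Hochberg over the 17795 genes tested. A DEG also changed at least 2-fold. All 9 heme genes passed the filter on low counts.

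The pathway was expressed in HSPCs of every genotype, at levels that differed widely between its steps. Per kilobase of annotated exon in control mice, *Alas1* was highest at 68.8 ± 10.6 CPM per kb, followed by *Urod* at 24.6 ± 3.51, *Cpox* at 20.3 ± 4.60, and *Alad* at 19.3 ± 4.28 (SD, n = 3 each). Lower levels were found for *Slc25a38* (7.93 ± 1.67 CPM per kb), *Ppox* (6.01 ± 1.35), *Fech* (4.52 ± 0.820), and *Uros* (3.74 ± 0.736). The ranges of *Urod*, *Cpox*, and *Alad* overlapped over the control mice, as did those of each neighboring pair from *Slc25a38* down to *Uros*, so that the order within these runs is not resolved. *Alas2* was last at 0.431 ± 0.0288 CPM per kb. In NPmut HSPCs, the top of the order was *Alas1* (81.2 ± 8.08 CPM per kb), *Urod* (17.9 ± 2.06), *Alad* (11.3 ± 2.32), and *Cpox* (10.1 ± 3.54, SD, n = 4 each), the last 2 again overlapping.

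**Figure D1:**
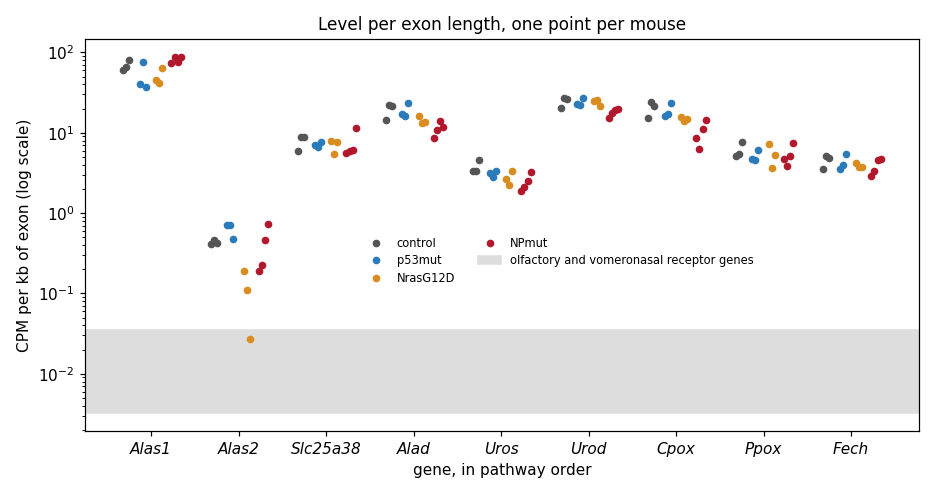
Level of each heme biosynthesis gene in CPM per kb of exon (log scale, genes in pathway order), with 1 point per mouse colored by genotype. The gray band spans the level of olfactory and vomeronasal receptor genes over the 13 libraries, 0.00324 to 0.0346 CPM per kb. *Alas1* lies at the top and *Alas2* at the bottom in every mouse, and a single NrasG12D mouse has *Alas2* inside the band.

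Of the mRNAs for both first enzymes, that of *Alas1* predominated (chromosome 9, 106233455 to 106248654, GRCm38). Per kb, its level was between 56.6 and 2398 times that of *Alas2* in the 13 mice. *Alas1* was at 369, 408, and 497 CPM in control mice 1 to 3, at 247, 465, and 232 in p53mut mice, at 282, 256, and 399 in NrasG12D mice, and at 449, 546, 468, and 542 in NPmut mice 1 to 4. NPmut mice were above all NrasG12D mice but overlapped with control mouse 3 and with p53mut mouse 2, which was far above the other p53mut mice. That p53mut mouse also had the highest sums of its group over 8 monocyte genes (1043 CPM against 643 and 573) and over 8 neutrophil and GMP genes (18186 CPM against 10068 and 9129). NrasG12D mouse 3 and NPmut mouse 2 likewise had the highest *Alas1*, monocyte sum (850 and 2648 CPM), and neutrophil sum (14766 and 22989 CPM) of their groups. Control mouse 3 was an exception, with the highest *Alas1* and the lowest sums, 647 and 11729 CPM, of the control mice. NPmut mouse 4 was another, with *Alas1* at 542 CPM, close to mouse 2, but the lowest sums of its group, 1732 and 13601 CPM. The part of these cell types in *Alas1* was not tested.

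*Alas2* (X chromosome, 150547375 to 150570638) was near the lower limit of detection. It had 17, 18, and 20 counts in control mice, 23, 23, and 20 in p53mut mice, 8, 4, and 1 in NrasG12D mice, and 9, 14, 21, and 21 in NPmut mice, or 1.04 ± 0.0691, 1.52 ± 0.311, 0.263 ± 0.199 (SD, n = 3 each), and 0.976 ± 0.615 CPM (SD, n = 4). The 3 p53mut mice were above and the 3 NrasG12D mice below all control mice, while NPmut mice spanned both. Stray reads were gauged on 1733 receptor genes of olfactory and vomeronasal neurons, which were at 0.0254 ± 0.00855 CPM per kb in control (SD, n = 3) and 0.00762 ± 0.000560 in NrasG12D libraries (SD, n = 3). The *Alas2* level of NrasG12D mouse 3, 0.0269 CPM per kb, rested on its single count. *Alas2* also overlaps *Apex2* on the other strand, and whether counting used the strand is not given in the sources used here. Background and strand were not tested as parts of these differences. The log2 ratio of *Alas2* to *Alas1* per kb was −7.31 ± 0.23 in control (SD, n = 3) and −7.86 ± 0.88 in NPmut HSPCs (SD, n = 4). The difference of −0.55 was within the spread between mice (2-sided exact permutation test, p = 0.371, 35 splits).

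The mature end of the red cell program was as sparse as *Alas2* in this sort. The adult globin genes *Hbb-bs* and *Hba-a1*, whose protein takes up most of the heme of red cells, had at most 35 and 49 counts in any library. *Slc4a1*, the anion exchanger of the red cell membrane, had 82, 48, and 59 counts in control, 71, 25, and 94 in p53mut, 24, 9, and 6 in NrasG12D, and 54, 29, 25, and 70 in NPmut mice. Of 15 tested globin and red cell membrane genes, 4 had all NrasG12D mice below all control mice and 0 had them above, where 10.2% of all genes tested had them below.

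NPmut HSPCs had less mRNA for 3 enzymes in the middle of the pathway than control HSPCs. *Cpox* was lower by 2.03-fold (log2 fold change −1.02, SE 0.239, adjusted p = 0.0150, edgeR), *Alad* by 1.70-fold (−0.77, SE 0.191, adjusted p = 0.0183), and *Urod* by 1.37-fold (−0.46, SE 0.128, adjusted p = 0.0325). These were the 3 of 9 members called, all of them lower, against 10.9% of all genes tested called in either direction and 5.54% called lower. *Cpox* was the DEG among them, where 3.69% of all genes were lower DEGs. Over the 9 members, the median log2 fold change was −0.23 and 8 were negative, against a median of 0.01 and 48.7% negative over all genes tested.

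*Cpox* (chromosome 16, 58670292 to 58717636), which makes protoporphyrinogen in the space between the mitochondrial membranes, was at 101, 160, and 145 CPM in control mice, 107, 114, and 158 in p53mut mice, 106, 92.4, and 97.9 in NrasG12D mice, and 56.7, 41.3, 73.3, and 96.4 in NPmut mice. The highest NPmut mouse, mouse 4, was just under the lowest control mouse and above NrasG12D mouse 2. *Alad* (chromosome 4, 62509169 to 62519918), which condenses aminolevulinate into the pyrrole porphobilinogen, was at 26.9, 41.0, and 40.5 CPM in control mice, 31.9, 29.9, and 43.6 in p53mut mice, 30.0, 24.5, and 25.8 in NrasG12D mice, and 15.9, 20.3, 26.4, and 22.2 in NPmut mice. Control mouse 1 and NPmut mouse 3 nearly met. *Urod* (chromosome 4, 116989965 to 116994413), which trims uroporphyrinogen to coproporphyrinogen in the cytosol, was at 53.4, 70.3, and 67.7 CPM in control mice, 59.3, 57.4, and 70.2 in p53mut mice, 63.4, 66.9, and 56.3 in NrasG12D mice, and 39.1, 45.8, 50.2, and 50.6 in NPmut mice. *Urod* had all 4 NPmut mice below every mouse of the other 3 groups, as did 4.88% of all genes tested.

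The 3 calls depended on which libraries were fitted. With the NPmut and control libraries alone, none of the 9 passed, and the adjusted p was 0.0600 for *Cpox*, 0.0650 for *Alad*, and 0.108 for *Urod*. It was 0.0642, 0.0882, and 0.143 without control mouse 2 and 0.0651, 0.0928, and 0.136 without control mouse 3, and *Urod* was also lost without NPmut mouse 1 (0.0794) and without the filter on low counts (0.0548), while all log2 fold changes stayed negative.

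**Figure D2:**
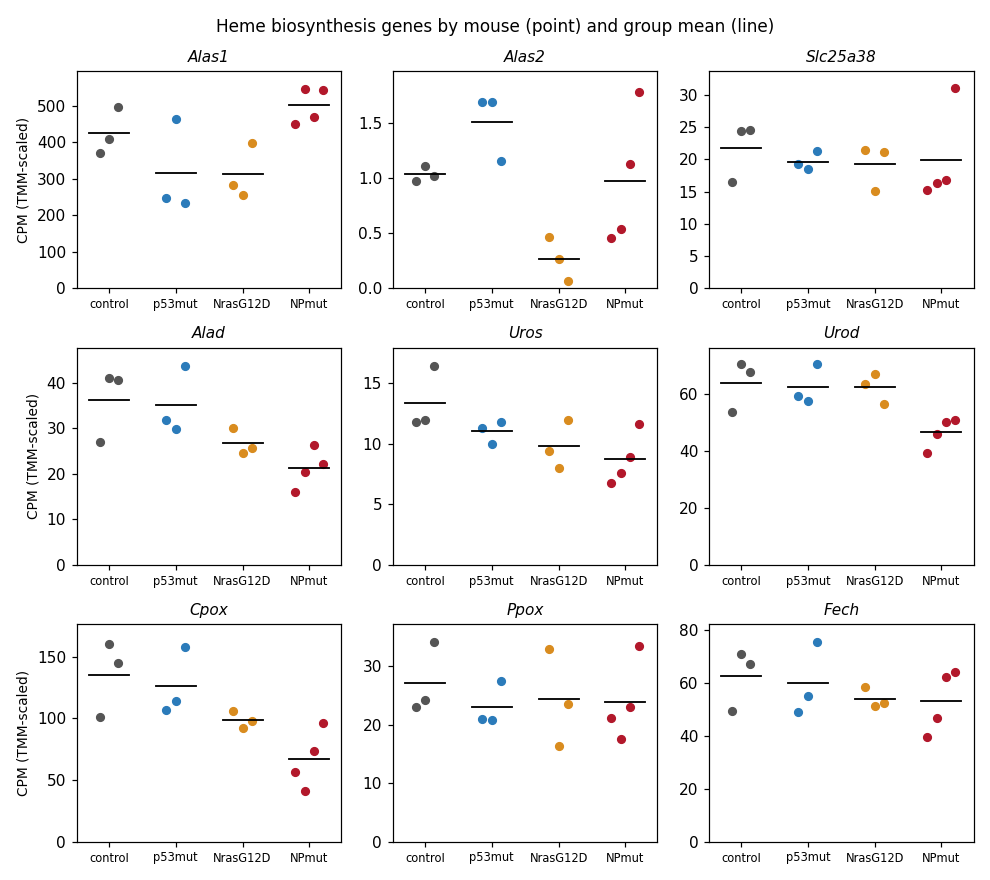
CPM of each of the 9 genes by genotype, with 1 point per mouse and a line at the group mean. For *Alad*, *Uros*, *Urod*, and *Cpox*, the 4 NPmut mice lie below the 3 control mice, whereas *Slc25a38*, *Ppox*, and *Fech* overlap between the groups.

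*Uros* (chromosome 7, 133686243 to 133710072), which closes the porphyrin ring, was at 11.8, 11.9, and 16.4 CPM in control, 11.3, 9.95, and 11.8 in p53mut, 9.38, 7.99, and 11.9 in NrasG12D, and 6.72, 7.60, 8.90, and 11.6 in NPmut mice. All NPmut mice were again below all control mice, mouse 4 by little, and the log2 fold change of −0.63 (SE 0.209) missed the threshold at an adjusted p of 0.0678 (edgeR). It passed without NPmut mouse 4 (0.0203), with unscaled library totals (0.0366), with DESeq2 (0.0291), and with the replicate number as a block (0.00824). NPmut mouse 4 is the only mouse with that number, so that the block leaves it out of the comparison. The block run is therefore not separate from the run without that mouse. *Uros* overlaps *Bccip* on the other strand, which had up to 2123 counts. Including *Uros*, 4 of 9 members had NPmut mice below all control mice and 0 of 9 had them above, against 11.5% and 10.4% of all genes tested.

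The other members were not called. *Fech* (chromosome 18, 64452914 to 64490251) was at 49.7, 70.9, and 67.2 CPM in control, 48.9, 55.3, and 75.8 in p53mut, 58.6, 51.3, and 52.4 in NrasG12D, and 39.6, 46.7, 62.5, and 64.3 in NPmut mice, with NPmut mice 3 and 4 inside the control range (log2 fold change −0.23, SE 0.186, adjusted p = 0.465). *Ppox* (chromosome 1, 171275990 to 171281186), which forms protoporphyrin in the mitochondrion, ranged from 23.0 to 34.1 CPM in control, 20.8 to 27.4 in p53mut, 16.4 to 32.9 in NrasG12D, and 17.5 to 33.5 in NPmut mice (−0.20, SE 0.245, adjusted p = 0.664), and its sign turned without control mouse 3. *Slc25a38* (chromosome 9, 120110374 to 120124504) was at 16.5, 24.3, and 24.5 CPM in control, between 18.4 and 21.2 in p53mut, between 15.1 and 21.4 in NrasG12D, and at 15.3, 16.4, 16.8, and 31.0 in NPmut mice (−0.14, SE 0.233, adjusted p = 0.751). The single high value was that of NPmut mouse 4. For *Alas1* the log2 fold change was 0.24 (SE 0.222, adjusted p = 0.544) and for *Alas2* −0.13 (SE 0.525, adjusted p = 0.900), the latter with a sign that turned without NPmut mouse 1 or 2.

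**Figure D3:**
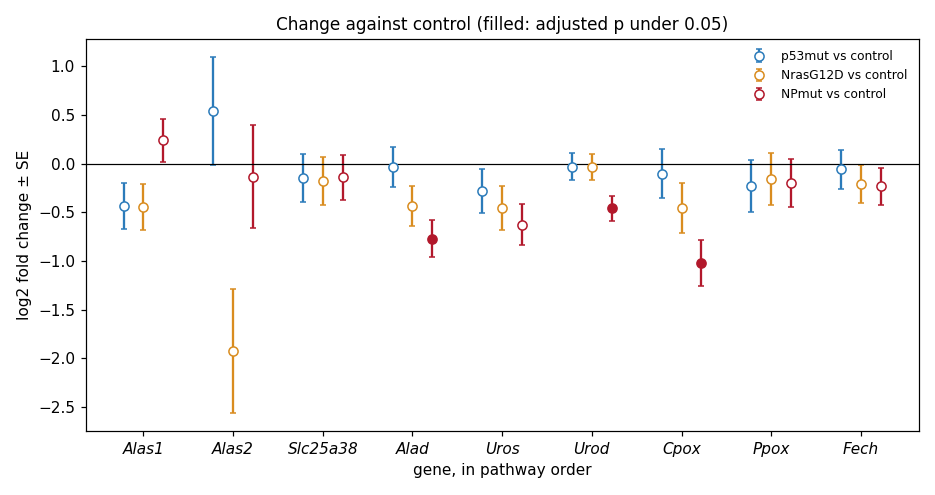
Log2 fold change ± SE of each gene in p53mut, NrasG12D, and NPmut against control HSPCs, filled where the adjusted p was under 0.05. The filled points are *Alad*, *Urod*, and *Cpox* in NPmut HSPCs, at −0.77, −0.46, and −1.02, and the wide bars are those of *Alas2*.

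No member was called in either single mutant. The 3 comparisons with control share the control libraries, and their values for the members are therefore set side by side only. In p53mut HSPCs, *Cpox*, *Alad*, and *Urod* had log2 fold changes of −0.10 (SE 0.256), −0.04 (SE 0.204), and −0.03 (SE 0.137), with adjusted p-values of 1.00 (edgeR). The lowest value was −0.43 in *Alas1* and the highest 0.54 in *Alas2*, whose p53mut mice lay above all control mice, as they did in 5.47% of all genes. Over all genes, 0% were called in this comparison. At an unadjusted p under 0.05 there were 0 members and 415 of the 17795 genes tested, and DESeq2 called 0 members. In NrasG12D HSPCs, all 9 log2 fold changes were negative, with a median of −0.43 against −0.01 over all genes tested. *Alad* was at −0.43 (SE 0.205, adjusted p = 0.552), *Cpox* at −0.46 (SE 0.257, adjusted p = 0.651), and *Urod* at −0.04 (SE 0.137, adjusted p = 0.970). *Alas2* was at −1.92 (SE 0.637, adjusted p = 0.332) and was the 1 member with an unadjusted p under 0.05, with NrasG12D mice below all control mice, as in the 10.2% of all genes given above. Of the 17795 genes tested, 1642 had an unadjusted p under 0.05 there. edgeR called 0.00562% of all genes, and DESeq2 called 154 genes and 0 members.

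Against p53mut HSPCs, NPmut HSPCs were lower for the same 3 enzyme genes. The log2 fold changes were −0.92 for *Cpox* (SE 0.239, adjusted p = 0.0265, edgeR), −0.73 for *Alad* (SE 0.191, adjusted p = 0.0251), and −0.43 for *Urod* (SE 0.128, adjusted p = 0.0482). In this comparison 9.95% of all genes were called, 5.14% lower, and the groups did not overlap for these 3 members, as in 10.5% of all genes with NPmut lower. None was called with the p53mut and NPmut libraries alone (adjusted p 0.0898, 0.0758, and 0.116), without p53mut mouse 3 (0.147, 0.156, and 0.212), or without NPmut mouse 1 (0.0703, 0.0650, and 0.114). Without p53mut mouse 1, *Cpox* alone passed, and without p53mut mouse 2, *Urod* did not (0.0606). *Alas1* was at 0.67 (SE 0.224, adjusted p = 0.0747), and without the high p53mut mouse 2 at 1.07 (adjusted p = 0.00302).

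Against NrasG12D HSPCs, edgeR called 0 of 9 members, with 8.88% of all genes called and 4.97% called lower. At an unadjusted p under 0.05 there were 4, and DESeq2 called 3, *Alas1*, *Alas2*, and *Urod*. Of the 17795 genes tested, 4283 had an unadjusted p under 0.05 and DESeq2 called 2319. The closest to the threshold was *Urod* at −0.42 (SE 0.128, adjusted p = 0.0531), whose NPmut mice lay below all NrasG12D mice, as in 11.2% of all genes. It passed with library totals (0.0291) and without NPmut mouse 4 (0.0374). *Alas1* at 0.68 (SE 0.224, adjusted p = 0.0744) had NPmut mice above all NrasG12D mice, as in 9.34% of all genes, and passed without NrasG12D mouse 3 (0.0499). *Alas2* was at 1.79 (SE 0.614, adjusted p = 0.0855), and *Cpox* at −0.56 (SE 0.239, adjusted p = 0.165), which passed without NPmut mouse 4 (0.0337).

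The interaction, which is the log2 level in NPmut minus p53mut minus NrasG12D plus control HSPCs, measured how far the double mutant departed from the sum of both single-mutant changes. It was called in 1.74% of all genes and in 0 members by edgeR. *Alas1*, which was lower in the mean of both single mutants and higher in that of NPmut mice than in control, had the largest departure from 0 in standard errors, at 1.12 (SE 0.326, adjusted p = 0.0979), and was the 1 member with an unadjusted p under 0.05. DESeq2 called it (0.0243), and edgeR did without p53mut mouse 2, where the value was 1.51 (adjusted p = 0.00815). Of the 17795 genes tested, 2859 had an unadjusted p under 0.05 and DESeq2 called 914. The interaction was −0.46 for *Cpox* (SE 0.351), −0.30 for *Alad* (SE 0.281), and −0.39 for *Urod* (SE 0.188), with adjusted p-values of 0.566, 0.656, and 0.327, so that a departure from the sum of the single-mutant changes was not detectable for the genes that fell.

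GATA1, the regulator of red cell and megakaryocyte development, binds the letters AGATAA or AGATAG or TGATAA or TGATAG, and KLF1, its erythroid partner, CACCC-type sites, written here as CCNCNCCC. The letters CCNCNCCC also match stretches without CACCC. The promoters of the 3 genes that fell are printed with that of *Alas2*, the erythroid isoform, to show where such letters stand. Each window holds 250 bases before and 50 after a RefSeq start site on GRCm38.p6, is written 5′ to 3′ on the strand of the gene, and has GATA letters of either strand in capitals. The windows are chr16:58669958-58670257 (plus strand) for *Cpox*, chr4:62519860-62520159 (minus strand) for *Alad*, chr4:116994364-116994663 (minus strand) for *Urod*, and chrX:150547167-150547466 (plus strand) for *Alas2*.
Cpox: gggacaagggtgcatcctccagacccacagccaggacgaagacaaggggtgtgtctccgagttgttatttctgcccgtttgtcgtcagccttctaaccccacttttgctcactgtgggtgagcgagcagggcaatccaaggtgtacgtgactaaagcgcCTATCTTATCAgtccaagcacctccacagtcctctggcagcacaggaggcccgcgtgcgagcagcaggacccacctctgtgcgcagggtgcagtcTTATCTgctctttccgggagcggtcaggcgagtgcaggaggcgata
Alad: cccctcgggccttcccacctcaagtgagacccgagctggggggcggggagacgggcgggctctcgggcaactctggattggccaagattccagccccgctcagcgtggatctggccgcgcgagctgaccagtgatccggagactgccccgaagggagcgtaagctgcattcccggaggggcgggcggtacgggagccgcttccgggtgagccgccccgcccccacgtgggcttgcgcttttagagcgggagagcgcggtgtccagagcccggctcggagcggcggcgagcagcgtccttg
Urod: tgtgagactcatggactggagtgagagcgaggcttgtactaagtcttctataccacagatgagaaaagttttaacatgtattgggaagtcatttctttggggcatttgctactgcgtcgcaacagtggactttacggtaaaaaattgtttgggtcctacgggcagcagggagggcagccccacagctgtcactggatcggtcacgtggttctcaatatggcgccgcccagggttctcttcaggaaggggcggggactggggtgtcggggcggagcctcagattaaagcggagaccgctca
Alas2: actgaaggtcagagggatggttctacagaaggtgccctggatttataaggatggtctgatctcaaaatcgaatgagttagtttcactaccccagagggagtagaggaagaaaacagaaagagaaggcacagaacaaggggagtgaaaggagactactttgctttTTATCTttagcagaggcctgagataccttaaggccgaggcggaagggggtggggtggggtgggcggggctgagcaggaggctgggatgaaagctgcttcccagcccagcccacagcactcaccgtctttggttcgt

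The *Cpox* window held 3 matches to the GATA letters. A pair of them, which share a base, began 91 and 86 bases before the start site, and the third began 4 bases after it. The *Alas2* window held 1, at 86 bases before the start, and the windows of *Alad* and *Urod* held 0. Of the 11 windows of the 8 members with an entry, 3 had GATA letters, those of *Alas2*, *Cpox*, and an alternative start of *Uros*. Of all 32851 mouse windows of the same length, 29.8% did. The CCNCNCCC letters, on either strand, stood in at least 1 window of all 8, 10 of the 11 windows, against 49.5% of all windows. CACCC itself, on either strand, was part of such a match only in *Alas1* and *Alas2*. The matches in *Cpox*, *Alad*, and *Urod*, such as GGGAGCGG in *Cpox* and GGGCGGGG in *Urod*, lacked it. Outside these matches, the printed windows of *Cpox*, *Alad*, and *Urod* do hold CACCC on the other strand, written GGGTG. The share of all windows that hold CACCC itself was not counted. The GC content of the members' windows ranged from 45.3% to 73.3%. The CCAAT letters were found in 4 of the 11 windows, of *Alad*, *Urod*, and *Ppox*, with 37.4% of all windows holding them. TGANTCAGC, the site of NFE2, stood in 0 of the 11, with 1.19% of all windows holding it. These matches describe letters and not occupied sites.

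Most of the listed regulators of the red cell lineage were also lower in NPmut than in control HSPCs. Of 10 tested, 7 were called lower and 0 higher, against 5.54% of all genes called lower, with a median log2 fold change of −1.44. Not called were *Epor*, the erythropoietin receptor (−1.47, adjusted p = 0.0598, edgeR), *Ldb1* (−0.32, 0.135), and *Nfe2* (−0.12, 0.505). The 5 with the smallest adjusted p were *Tal1*, which binds DNA with GATA1 (−1.26, adjusted p = 0.00511), *Gata2* (−1.64, 0.0142), *Lmo2*, a bridging protein of GATA1 complexes (−0.48, 0.0150), the GATA1 cofactor *Zfpm1* (−1.67, 0.0184), and *Gata1* itself (−1.80, 0.0194). The number called was 2 with the NPmut and control libraries alone or without the filter on low counts, 3, 4, and 1 without control mouse 1, 2, or 3, and 3 without NPmut mouse 1, whereas *Tal1* was called under every alternative run. *Klf1* was at 64.4, 95.2, and 93.0 CPM in control, 73.7, 67.7, and 109 in p53mut, 73.9, 76.8, and 61.3 in NrasG12D, and 18.7, 8.29, 31.0, and 50.1 in NPmut mice (log2 fold change −1.66, SE 0.441, adjusted p = 0.0341, edgeR). *Gata1* was at 41.9, 56.1, and 57.7 CPM in control, 46.3, 34.6, and 60.0 in p53mut, 51.1, 41.4, and 34.6 in NrasG12D, and 11.1, 4.36, 24.6, and 20.2 in NPmut mice. *Cpox* and *Klf1* ranked the mice in the same order within the control and the NPmut group, but not within the p53mut and NrasG12D groups. NPmut mice 2, 1, 3, and 4, in rising order of both genes, also had rising erythroid marker sums of 377, 592, 982, and 1010 CPM. These sums contain *Klf1* and *Gata1*. Control mice 1, 3, and 2, in rising order of both *Cpox* and *Klf1*, had sums of 1153, 1691, and 1661 CPM. *Alad*, *Urod*, and *Gata1* ranked the NPmut mice in other orders than *Klf1*.

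**Figure D4:**
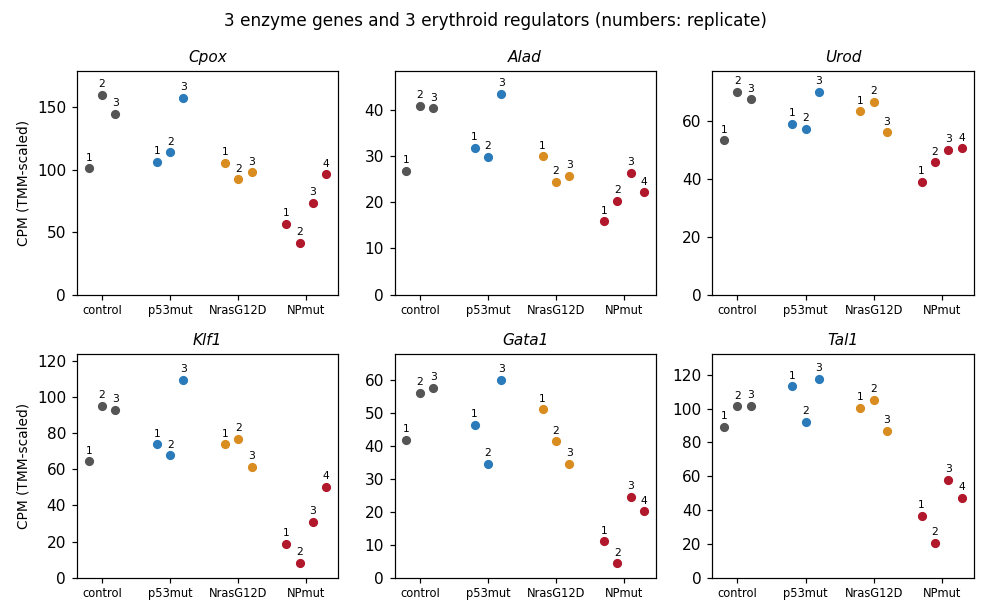
CPM of *Cpox*, *Alad*, and *Urod* and of the erythroid regulators *Klf1*, *Gata1*, and *Tal1* by genotype, with 1 point per mouse and its replicate number. The NPmut mice lie below the control mice in all 6 panels, and NPmut mouse 2 has the lowest value of *Cpox*, *Klf1*, *Gata1*, and *Tal1*, at 41.3, 8.29, 4.36, and 20.8 CPM.

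Over the 13 libraries, the log2 CPM of the members that fell was correlated. These members were picked because NPmut mice were lower, which can by itself raise r over the 13. Pearson's r was 0.880 for *Cpox* and *Alad*, 0.854 for *Cpox* and *Urod*, and 0.886 for *Alad* and *Urod*, and over the 9 libraries without NPmut mice it was 0.974, 0.686, and 0.684. *Fech*, which was not called, had an r of 0.741 with *Cpox* over all 13 and 0.934 over the 9. *Alas1* had an r of −0.40 with *Cpox* and −0.55 with *Urod* over the 13, and 0.19 and −0.23 over the 9. These correlations describe 4 groups of mice in the same libraries, share depth and cell makeup, and carry no test.

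The genes most like the mean of the 9 standardized members over the 13 libraries, among 12846 genes outside the lists whose mean log2 CPM was 1 or more, were *Sec14l2* (r = 0.959), *Txnrd2* (0.943), *Sppl2b* (0.927), *Abcg4* (0.924), and *Iqcd* (0.919). Within the lists of heme, iron, and cell type genes, similar genes included *Hebp1* (0.946), a heme-binding protein, *Cldn13* (0.879), a protein of erythroblasts, and *Slc40a1* (0.874), the iron exporter ferroportin. Most like *Alas2* were *Ptp4a1* (0.791), *Gm17052* (0.781), *Hnrnpu* (0.779), *Gm4994* (0.779), and *Heatr3* (0.777) outside the lists, and genes within them included *Slc4a1* (0.811), *Hebp1* (0.626), *Fth1* (0.539), and *Dlst* (0.529). The low counts of *Alas2* limit these values.

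The other genes around the pathway are given by list, to be read against the 10.9% of all genes called in NPmut against control HSPCs. Of 15 genes of iron supply, 4 were called lower and 0 higher. *Steap3*, the endosomal ferrireductase, fell from 51.4 ± 1.70 CPM in the 3 control mice to 27.3 ± 4.72 CPM (SD) in the 4 NPmut mice (log2 fold change −0.92, adjusted p = 0.00140, edgeR). *Tfr2*, a transferrin receptor that associates with the erythropoietin receptor, fell from 56.6 ± 7.47 to 17.9 ± 9.19 CPM (−1.67, adjusted p = 0.00817), *Slc11a2*, which moves iron out of the endosome, from 29.6 ± 7.42 to 17.7 ± 3.90 (−0.75, adjusted p = 0.0199), and *Slc40a1* from 31.4 ± 7.34 to 13.4 ± 7.39 (−1.25, adjusted p = 0.0383). *Tfrc*, the main transferrin receptor, was at 225 ± 50.4 and 223 ± 25.3 CPM (−0.02, adjusted p = 0.954). *Steap3* and *Tfr2* were called under every alternative run, while *Slc11a2* and *Slc40a1* were not called with the compared groups alone or without control mouse 3, and *Slc40a1* also not without control mouse 2 or any of NPmut mice 1 to 3.

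Among 15 other genes of porphyrin transport and of the control of ALAS, 1 was called, *Abcg2*, a porphyrin exporter of the plasma membrane, which was at 29.3, 33.6, and 32.7 CPM in control and 16.4, 17.9, 22.4, and 19.3 in NPmut mice (−0.75, SE 0.139, adjusted p = 0.00379, edgeR), under every alternative run. Of 12 genes of iron-sulfur cluster assembly, 1 was lower, *Nfs1*, the cysteine desulfurase (−0.48, adjusted p = 0.0214), which was not called with the compared groups alone (0.0928), without the filter on low counts (0.0965), or when control mouse 2, control mouse 3, or NPmut mouse 1 was left out. Of 9 genes that supply glycine and succinyl-CoA, 0 were called by edgeR and by DESeq2, and 2 had an unadjusted p under 0.05. Of 12 tested genes of heme breakdown, export, and sensing, edgeR called 0 and DESeq2 1, and 2 had an unadjusted p under 0.05. Of all 17795 genes tested, 4561 had an unadjusted p under 0.05 and DESeq2 called 2676. Of 15 tested globin and red cell membrane genes, 1 was called lower, *Car2*, the carbonic anhydrase (−1.36, adjusted p = 0.0386). *Car2* was not called with the compared groups alone (0.0879), without the filter on low counts (0.116), or when any 1 control mouse or NPmut mouse 1 was left out. All 15 log2 fold changes were negative, with a median of −1.02, and 8 of the genes had an unadjusted p under 0.05.

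Of 10 tested genes for heme proteins of myeloid cells and heme A synthesis, 2 were called higher and 0 lower in NPmut HSPCs, against 10.9% of all genes called in either direction. *Mpo* (log2 fold change 0.29), *Epx* (0.72), and *Cat* (−0.11) were among those not called (adjusted p 0.490, 0.350, and 0.680, edgeR). The 2 called genes encode both membrane subunits of the phagocyte oxidase, the cytochrome that carries heme in phagocytes. *Cybb* was at 42.8, 34.4, and 31.7 CPM in control and 149, 157, 82.3, and 124 in NPmut mice (log2 fold change 1.82, SE 0.289, adjusted p = 0.00185, edgeR), and *Cyba* at 29.2, 23.9, and 21.0 and 37.5, 68.6, 38.0, and 37.2 (0.88, SE 0.211, adjusted p = 0.0156), the latter not called with the compared groups alone (0.0674) or without control mouse 2 or 3. The monocyte marker sum given above was higher in the same mice, 6 of its 8 genes being called higher, and its part in these 2 genes was not tested.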

How the data were processed

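The authors deposited raw read counts per gene for 13 RNA-Seq libraries of sorted Lin-cKit+ BM cells, 1 library per mouse, made with a SMARTer stranded pico-input kit. The submitters' processing notes list STAR 2.6.1d, R 3.6.1, DESeq2 1.26.0, and GRCm38.p6; the counting program, its strand setting, and its annotation are not given in the sources used here. Gene names, positions, and exonic lengths were taken from GENCODE M21 (GRCm38), which holds 54809 of the 54838 identifiers.

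Counts were fitted in R 4.3.3 with edgeR 4.0.16 (TMM, filterByExpr, robust quasi-likelihood, a mean for each group, no covariate), which tested 17795 genes. CPM used TMM-scaled totals, and log2 CPM a prior count of 2. Alternatives were DESeq2 1.42.0, other scaling (RLE factors or library totals), other filters, fewer groups, the replicate number, and leaving out each mouse. The procedure was tested on simulated data. Same-numbered control and p53mut mice deviated from their group means together (r = 0.166, 0.163, and 0.152), although the labels do not say what the number marks. Nothing names litters or batches, so that p-values measure the spread between these mice.

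The members and lists were chosen with earlier results of these data known. Named beyond the members are the genes called for NPmut against control HSPCs in the other lists, up to the 5 with the smallest adjusted p per direction, and the 5 genes of most similar pattern inside and outside the lists; *Tfrc*, *Hbb-bs*, *Hba-a1*, and *Cd34* were added after their values were seen. From the cell type lists, counts and sums are given, and *Flt3* was added after its values were seen. Of the lists, 2 genes are not reported here.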

Additional observations from a re-analysis of the deposited data

Results flagged for a closer look

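*Slc25a38*, the mitochondrial glycine importer, had 1 NPmut mouse that stood apart. Mouse 4 was at 31.0 CPM (366 counts), the others at 15.3, 16.4, and 16.8 CPM (303, 424, and 313 counts). On the log2 CPM scale, the gap between mouse 4 and its nearest neighbor was 0.870 of the range of the group, above Dixon's 95% critical value for 4 mice, which chance exceeds in about 1 of 20 groups. The 9 members were examined in this way, and 1 exceeded it. NPmut mouse 4 had the smallest library, with 12576174 counts, and was the highest NPmut mouse for 7 of the 9 members, all but *Alas1* and *Alad*: *Cpox* was at 96.4, *Fech* at 64.3, *Urod* at 50.6, *Ppox* at 33.5, *Uros* at 11.6, and *Alas2* at 1.78 CPM in it. The part of the library in these values was not tested.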

How the results depend on the processing

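Against control, the 3 members called in NPmut HSPCs became 0 with the compared groups alone and 0 to 4 with each mouse left out, 0 without control mouse 2 or 3. Against p53mut HSPCs, the 3 became 0 with the compared groups alone and 0 to 3 with each mouse left out. Against NrasG12D HSPCs, where 0 were called, library totals gave 1, no filter 2, at least 10 counts in every library 1, the replicate number as a block 2, DESeq2 3, and each mouse left out 0 to 2. For the interaction, with 0 called, no filter gave 1, DESeq2 1, and each mouse left out 0 to 1. The causes were not tested. For single members, the sign turned for *Ppox* (−0.41 to 0.0067 with each mouse left out, positive without control mouse 3) and for *Alas2* (−0.57 to 0.10, positive without NPmut mouse 1 or 2). Only the p53mut pairs met the pairing check in all 3 numbers, and p53mut against control gave 0 called members with and without the block, in both the fit to all libraries and, chosen after seeing the data, the fit to these 6. For the other groups the number is only shared: under the block, *Uros* was called against control (adjusted p = 0.00824) and *Cpox* and *Urod* against NrasG12D HSPCs. The block leaves NPmut mouse 4, the only mouse with that number, out of these comparisons, and these calls also came when that mouse was left out. Unscaled library totals shifted the median of all genes to −0.11 from 0.01 and gave 636 higher and 1350 lower genes instead of 958 and 986, while DESeq2 called 1311 and 1365. At the depth of these libraries, *Alas2*, with 1 to 23 counts, allows no firm comparison.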
